A study of Mus musculus with 31 samples.

Results

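A set of 10 imprinted genes with roles in growth was followed through RNA of leukocytes sorted from irradiated and unirradiated mouse mammary tumours. The genes are Peg3, H19, Igf2, Dlk1, Meg3, Mest, Grb10, Cdkn1c, Plagl1 and Igf2r, 10 of the 38406 gene symbols in each table of counts, and each of them had a row in all 31 libraries. They were chosen by their counts in these libraries, because Peg3 and H19 were much lower in irradiated than in mock libraries at day 5. The day 5 comparisons of irradiated with mock groups are therefore given for these genes as a description without p-values, and where a gene is said to be called there this describes the fit and supports nothing. P-values for these genes are given only for comparisons other than those that gave the reason for the choice. Earlier results of these data were known when the genes were chosen.

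All libraries came from wildtype female C57BL/6 mice bearing orthotopic tumours of AT3-OVA, a triple negative mammary tumour line that carries ovalbumin. Cells positive for CD45.2, the leukocyte surface protein used as the sort marker, were collected by flow cytometry and their total RNA was sequenced in bulk. Day 5 has 6 libraries of the 3x4Gy regimen (3 fractions of 4 Gy) with 4 of the mock schedule 3x0Gy, and 6 of the 1x20Gy regimen (1 dose of 20 Gy) with 4 of the mock schedule 1x0Gy. Day 13 has 7 irradiated libraries (1x20Gy) and 4 mock libraries (1x0Gy). Days count from the end of treatment, the radiation was local to the tumour, and the mock mice had the same anaesthesia with no radiation. The sample codes of the 2 days differ, so day and experiment cannot be told apart and levels were not compared across days. Nothing in the labels states that each library is a separate mouse, so the spread between libraries may be partly technical.

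Totals ran from 2641229 to 7541144 gene counts per library. Every library held leukocyte RNA, with 10 leukocyte markers summing to between 5120 and 7516 CPM (a gene's count relative to the size of its library, scaled by the TMM method within each day). RNA of other cells was present too: 14 epithelial or tumour markers summed to between 179 and 2669 CPM, and 13 fibroblast markers to between 13.4 and 205 CPM. One mock library, 3x0Gy library 2, stood apart in that 5.65% of its reads lay outside genes, against 16.5% to 21.5% in the other 3 of its group.

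In imprinting, the copy of a gene inherited from 1 parent is silenced by DNA methylation and associated marks, so that RNA comes mainly from the other copy. Peg3, Igf2, Dlk1, Mest and Plagl1 are expressed from the paternal copy, and H19, Meg3, Cdkn1c, Igf2r and, in most tissues, Grb10 from the maternal copy. Many of these genes act on fetal growth, are abundant in the embryo and placenta and are turned down after birth, and several are known from stem and progenitor cells, stroma and tumours. Igf2 encodes a growth factor that signals through the IGF1 and insulin receptors, Igf2r is a receptor that carries it to the lysosome for breakdown, Grb10 is an adaptor that restrains those signalling receptors, and Cdkn1c (p57) inhibits cyclin-dependent kinases. Peg3 and Plagl1 are zinc finger proteins, Dlk1 is a transmembrane protein related to Notch ligands, Mest resembles hydrolase enzymes, and H19 and Meg3 are long non-coding RNAs.

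In the GENCODE M21 annotation of GRCm38, 4 of the genes lie on chromosome 7. These are Peg3 (chr7:6703892-6730431), H19 (chr7:142575529-142578143), Igf2 (chr7:142650766-142666816) and Cdkn1c (chr7:143458339-143461050), all on the minus strand. Dlk1 (chr12:109452823-109463336) and Meg3 (chr12:109541001-109571726) are neighbours on the plus strand of chromosome 12. Mest lies at chr6:30723547-30748465, Grb10 at chr11:11930508-12038683, Plagl1 at chr10:13060504-13131694 and Igf2r at chr17:12682406-12769664. Some exons are shared with other genes, and without a stated strand setting such reads cannot be assigned with certainty. Copg2, on the opposite strand, covers 23.1% of the exonic bases of Mest, an antisense gene covers 30.7% of those of Cdkn1c, and a further annotated gene covers 62.8% of those of Igf2 on the same strand.

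Sequences are shown for Peg3 and H19, the genes with the largest differences. For Peg3 this is the window around the start of Peg3 in RefSeq on GRCm38.p6, from 250 bases before to 50 bases after the start (chr7:6730370-6730669, minus strand), written 5′ to 3′. Capitals mark GGGGCCCC, the core of a GC-rich element known to be bound by Plagl1, itself 1 of the 10 genes.
Peg3 promoter: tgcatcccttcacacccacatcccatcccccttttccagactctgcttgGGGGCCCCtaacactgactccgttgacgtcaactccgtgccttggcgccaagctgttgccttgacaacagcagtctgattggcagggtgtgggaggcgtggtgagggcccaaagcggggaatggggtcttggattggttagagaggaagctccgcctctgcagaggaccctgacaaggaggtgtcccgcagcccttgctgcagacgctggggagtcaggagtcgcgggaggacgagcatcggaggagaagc

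The window holds 13 CpG dinucleotides, against a median of 7 over 32851 RefSeq promoter windows of the same length, and its GC content is 61.3%. GGGGCCCC, which reads the same on both strands, occurs once, beginning 201 bases before the start, and 1.08% of all promoter windows hold it. Neither GCCATNTT, a YY1 motif searched on both strands and held by 6.05% of windows, nor TATAAA, held by 13.6%, occurs in it. Of the 10 genes, 8 had at least 1 promoter window in the table, 15 windows in all. GGGGCCCC was found in the Peg3 window alone among these 15, and such a match describes letters and not binding.

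For H19 it is the microRNA made from it. The hairpin, Mir675, lies within an exon of H19 at chr7:142577064-142577147, minus strand. The mature sequences follow, from RefSeq, with the seed (bases 2 to 8) in capitals; the 2 arms have different seeds.
mmu-miR-675-5p: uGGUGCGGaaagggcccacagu
mmu-miR-675-3p: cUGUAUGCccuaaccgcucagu

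Per kilobase of exon, Igf2r, H19 and Peg3 were the most abundant of the 10 genes in mock libraries. In the 3x0Gy group the mean levels per kilobase were 5.78 CPM for H19, 5.04 for Igf2r and 2.94 for Peg3, and none of the other 7 genes exceeded 0.391. The 1x0Gy groups had Igf2r first, at 3.82 CPM per kilobase on day 5 and 3.56 on day 13. H19 and Peg3 stood at 3.15 and 1.91 there on day 5, and at 1.59 and 2.40 on day 13. After irradiation at day 5 Igf2r was still at 4.16 (3x4Gy) and 4.63 (1x20Gy) CPM per kilobase, whereas H19 was at 0.312 and 0.204 and Peg3 at 0.110 and 0.0898.

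**Figure D1:**
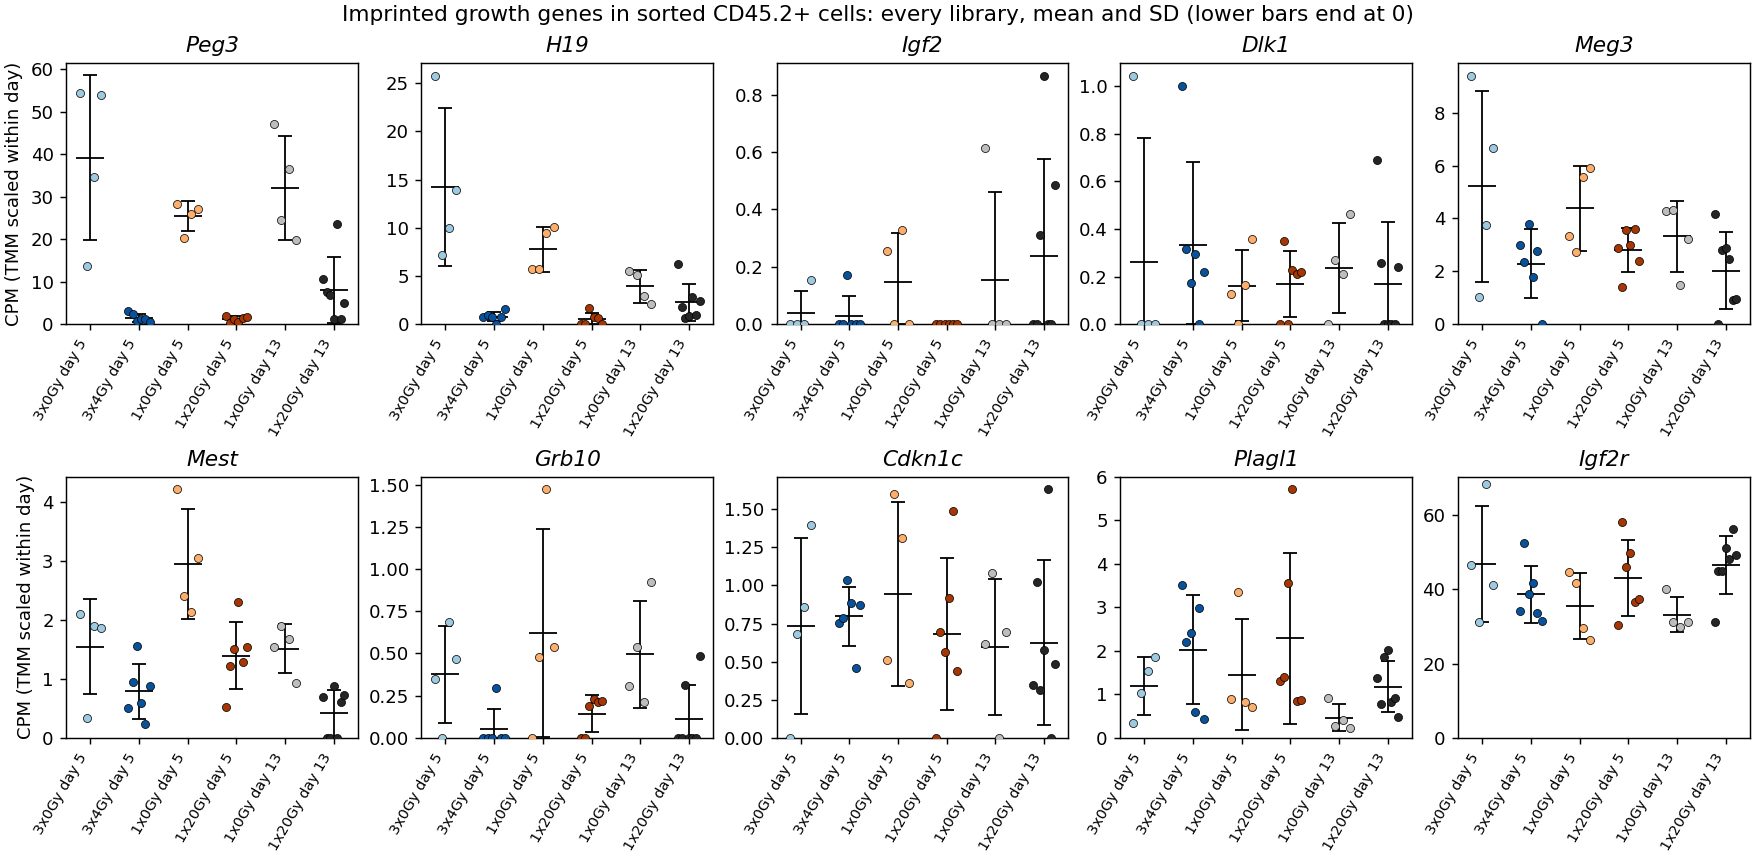
Each point is 1 library and the y axis is its CPM (linear, TMM-scaled within the day), with horizontal bars at the group mean and error bars of 1 SD, cut at 0. Peg3 and H19 are high in all 8 mock libraries of day 5 and close to 0 in all 12 irradiated ones, while Igf2r lies between 26.3 and 68.3 CPM in every library.

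Peg3 showed the widest range of the 10 genes across groups. Among the 3x0Gy libraries it stood at 54.4, 13.6, 34.8 and 54.1 CPM, and among the 6 libraries after 3x4Gy at 0.436 (lowest), 1.16 (median) and 3.01 (highest). The day 5 1x0Gy libraries had 28.2, 20.3, 26.0 and 27.0 CPM, and the 6 after 1x20Gy had a lowest value of 0.348, a median of 1.40 and a highest value of 1.83. Neither irradiated group reached the lowest library of its mock group. The log2 fold change was -4.72 (SE 0.40) for 3x4Gy against 3x0Gy and -4.42 (SE 0.41) for 1x20Gy against 1x0Gy. Behind these values were 42 and 33 Peg3 counts in all over the irradiated groups, against 748 and 658 over the mock groups.

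H19 followed the same order of the day 5 groups at lower levels. It stood at 25.8, 7.15, 9.93 and 14.0 CPM in the 3x0Gy libraries and at 0 (lowest), 0.721 (median) and 1.53 (highest) after 3x4Gy. In the 1x0Gy libraries of day 5 H19 had 5.74, 5.75, 9.50 and 10.03 CPM, and after 1x20Gy it had 0, 0.319 and 1.69 as lowest, median and highest. No irradiated library overlapped the mock range, and 3 of the 6 after 1x20Gy had no H19 count. The log2 fold changes were -4.10 (SE 0.53) after 3x4Gy and -3.83 (SE 0.57) after 1x20Gy.

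Of the 6 genes with enough counts to be tested at day 5, Peg3 and H19 were called lower in each regimen and the other 4 were not called. Among all 12021 genes tested, 7.09% were called lower and 5.2% higher after 3x4Gy, and 4.88% were called lower and 3.67% higher after 1x20Gy (edgeR quasi-likelihood test, Benjamini-Hochberg adjusted p below 0.05). Every irradiated library lay below every mock library for 5.67% of genes after 3x4Gy and for 6.07% after 1x20Gy. The counts for the 10 genes follow from how the genes were picked, so nothing is read from them. In bulk RNA such as this, fewer cells of a type and less RNA per cell cannot be told apart.

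Leaving out 3x0Gy library 2, the library with few reads outside genes and the lowest Peg3 of its group, gave log2 fold changes of -4.99 for Peg3 and -4.30 for H19 after 3x4Gy. With the mean log2 level of the fibroblast and epithelial lists as a covariate, Peg3 was at -3.84 after 3x4Gy and -3.54 after 1x20Gy, and H19 at -2.81 and -2.62. H19 after 1x20Gy was then no longer called. Both lists were themselves lower after irradiation, so the covariate and the groups are confounded. The median log2 fold changes were -2.54 and -1.58 for fibroblast and -0.66 and -1.59 for epithelial or tumour markers (3x4Gy and 1x20Gy). These fits use the values that chose the genes, and do not show how much of the difference lies beyond the lists.

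**Figure D2:**
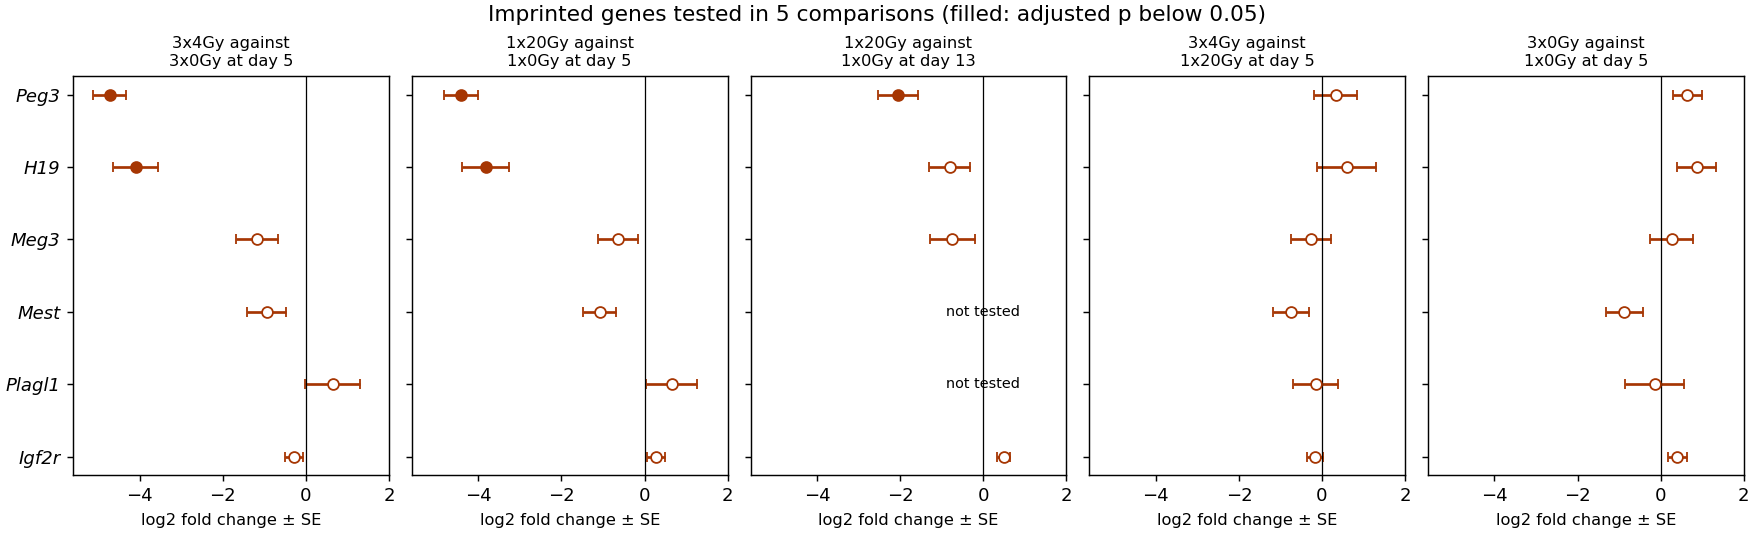
Points are log2 fold changes with bars of 1 SE from edgeR (x axis) for the 6 imprinted genes tested (y axis) in 5 comparisons, filled where the adjusted p was below 0.05; the first 2 panels are the comparisons that chose the genes. Peg3 lies at -4.72, -4.42 and -2.06 in the 3 comparisons of an irradiated with a mock group.

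The fall that chose the genes was read at day 5 and not in the day 13 libraries. Earlier results of these data were known at the choice, so the day 13 test may not be wholly independent of it. At day 13 Peg3 was 4.16-fold lower after 1x20Gy than after 1x0Gy. The mock libraries stood at 47.2, 24.5, 36.6 and 19.9 CPM (mean 32.0 ± 12.3, SD, n = 4). The irradiated libraries stood at 1.16 (lowest), 6.84 (median) and 23.7 (highest), with a mean of 8.05 ± 7.71 CPM (n = 7). Of the 7 irradiated libraries, 6 lay below every mock library, at 10.7 CPM or less, and 1 (library 5) lay within the mock range. The log2 fold change was -2.06 (SE 0.48, edgeR adjusted p = 0.0157), the 40th lowest of 11071 genes tested. Among all genes tested, 3.83% were called lower and 4.22% higher in this comparison.

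The call on Peg3 rested on a few libraries and on the model. Without 1x0Gy library 1 or library 3 the log2 fold change was -1.81 (edgeR adjusted p = 0.0579) or -1.98 (adjusted p = 0.0627), and with the fibroblast and epithelial covariate it was -2.04 (adjusted p = 0.0642). Without library 5 of the irradiated group it was -2.56 (adjusted p = 0.00121). The covariate is 1 mean over both lists, which went in opposite directions at day 13 (median log2 fold changes -1.55 for fibroblast and 0.78 for epithelial or tumour markers). The fit with it thus adjusts for neither list alone. Whether Peg3 differed less from mock at day 13 than at day 5 was not tested, because its day 5 values chose it.

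H19 did not pass the test at day 13. The mock libraries had 5.52, 5.12, 2.93 and 2.08 CPM, and the 7 irradiated libraries 0.622 (lowest), 1.79 (median) and 6.23 (highest). Both extremes of the irradiated group lay outside the mock range. The log2 fold change was -0.81 (SE 0.49, edgeR adjusted p = 0.349), with a 95% interval from -1.85 to 0.24.

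Meg3, the maternally expressed long RNA beside Dlk1, was at 4.29, 4.31, 1.46 and 3.23 CPM in the day 13 mock libraries and at 0 (lowest), 2.45 (median) and 4.15 (highest) after 1x20Gy. The groups overlapped, and the log2 fold change of -0.74 (SE 0.54) had an edgeR adjusted p of 0.453. At day 5 Meg3 was at 9.41, 1.02, 3.77 and 6.67 CPM after 3x0Gy against a median of 2.56 (0 to 3.80) after 3x4Gy, a log2 fold change of -1.16 (SE 0.51). After 1x0Gy it was at 3.32, 2.72, 5.57 and 5.91 CPM against a median of 2.92 (1.39 to 3.61) after 1x20Gy, a log2 fold change of -0.64 (SE 0.49). The ranges overlapped in both.

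Igf2r was detected in every library, at 26.3 CPM or more. At day 13 it stood at 40.1, 31.3, 29.9 and 31.2 CPM in the mock libraries and at 31.1 (lowest), 48.2 (median) and 56.3 (highest) after 1x20Gy. In 6 of 7 irradiated libraries Igf2r lay above all 4 mock libraries. The log2 fold change was 0.50 (SE 0.16) and did not pass the edgeR test (adjusted p = 0.0600), but it was called by DESeq2 at 0.51 (adjusted p = 0.0223). Without the irradiated library 1, the lowest of its group, edgeR gave 0.58 (adjusted p = 0.0167).

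At day 5 Igf2r had no common direction. It stood at 46.7, 31.3, 68.3 and 41.2 CPM after 3x0Gy and at a median of 36.4 (31.4 to 52.6) after 3x4Gy, with a log2 fold change of -0.28 (SE 0.21). After 1x0Gy it stood at 44.7, 41.7, 29.6 and 26.3 CPM and after 1x20Gy at a median of 41.7 (30.5 to 58.3), with a log2 fold change of 0.28 (SE 0.22). Airn, the paternally expressed RNA that is transcribed antisense to Igf2r, had too few counts to be tested. Its means at day 13 were 1.19 ± 0.68 CPM after 1x20Gy (n = 7) and 0.254 ± 0.043 after 1x0Gy (n = 4), and it was singled out after these values were seen.

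Mest, a paternally expressed gene of the hydrolase fold, was low throughout. The day 13 mock libraries had 1.53, 1.89, 1.67 and 0.924 CPM, and the irradiated libraries had 0 (lowest), 0.603 (median) and 0.867 (highest). Every irradiated library thus lay below every mock library, as it did for 3.97% of the genes tested. Mest itself had too few counts for the low count filter, with 10 counts over the irradiated group and 24 over the mock group. A fit without the filter gave -1.76 (SE 0.67, edgeR adjusted p = 0.147).

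At day 5 Mest was tested. The 3x0Gy libraries had 2.09, 0.341, 1.88 and 1.86 CPM and the 3x4Gy libraries a median of 0.732 (0.229 to 1.55), a log2 fold change of -0.94 (SE 0.47). The 1x0Gy libraries had 4.21, 2.40, 2.13 and 3.04 CPM and the 1x20Gy libraries a median of 1.39 (0.522 to 2.29), a log2 fold change of -1.07 (SE 0.40). Neither was called, and in both the groups overlapped.

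Plagl1, the zinc finger factor named above for its GC-rich element, did not share the direction of Peg3. At day 5 it stood at 0.349, 1.02, 1.54 and 1.86 CPM after 3x0Gy and at a median of 2.31 (0.436 to 3.51) after 3x4Gy. After 1x0Gy it stood at 0.893, 3.36, 0.819 and 0.716 CPM and after 1x20Gy at a median of 1.35 (0.850 to 5.73). The log2 fold changes were 0.64 (SE 0.65) and 0.65 (SE 0.61), each about the size of its error, and the groups overlapped. At day 13 Plagl1 was below the filter, with means of 1.18 ± 0.59 CPM after 1x20Gy (n = 7) and 0.460 ± 0.317 after 1x0Gy (n = 4); a fit without the filter gave 1.32 (SE 0.68, edgeR adjusted p = 0.331).

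The remaining 4 genes were too low for the count filter in every comparison. Igf2 had 14 counts in all over 8 of the 31 libraries, Dlk1 had 29 over 19, Grb10 had 39 over 17 and Cdkn1c had 106 over 27. Igf2 had no count in the 6 day 5 libraries after 1x20Gy, which allows a level of up to 0.0998 CPM at the limit of 3 counts over that group, for counting error only. Few or no counts were thus assigned to the growth factor in libraries in which its receptor Igf2r stood at 26.3 CPM or more. Reads in the 62.8% of Igf2 exonic bases shared with another gene may not have been counted as Igf2. Its level may therefore be higher than these counts and the limit give.

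Grb10 reached 1.47 CPM in a 1x0Gy library of day 5, its highest level. Its group totals were 8 and 15 counts in the day 5 mock groups against 1 (3x4Gy) and 4 (1x20Gy), and 8 in the day 13 mock group against 3 after 1x20Gy. Cdkn1c had group means from 0.596 ± 0.446 CPM (1x0Gy, day 13, n = 4) to 0.944 ± 0.603 (1x0Gy, day 5, n = 4). Dlk1 had means from 0.162 to 0.334 CPM and was at 0 in at least 1 library of each group. A fit without the filter called none of Igf2, Dlk1, Grb10 and Cdkn1c in any of the 5 comparisons. At day 13 it gave Grb10 -1.74 (SE 0.93, edgeR adjusted p = 0.348), Igf2 0.79 (SE 1.12, adjusted p = 0.719), Dlk1 -0.46 (SE 0.99, adjusted p = 0.835) and Cdkn1c 0.05 (SE 0.77, adjusted p = 0.977). At counts this low the fitted values depend on the prior count, and a difference that was not called is not shown to be absent.

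The regimens were compared directly at day 5, a contrast the choice of genes did not use, although it used the same irradiated libraries. Of Meg3, Mest, Plagl1 and Igf2r none was called between 3x4Gy and 1x20Gy, where 0.025% of all genes (3 of 12021) were called in either direction. For Peg3 and H19 this is no test, since both were picked for being low in these libraries and passed the count filter through the mock groups, so their values are a description. Peg3 had means of 1.47 ± 1.00 CPM after 3x4Gy and 1.20 ± 0.64 after 1x20Gy (n = 6 each), from 42 and 33 counts. H19 had 0.767 ± 0.492 and 0.502 ± 0.666 CPM (n = 6 each), from 23 and 15 counts.

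The intervals of the other 4 genes spanned 0 and do not show that the regimens acted alike. Mest had the lowest log2 fold change, at -0.75 (95% interval -1.64 to 0.14), and Meg3 was at -0.27 (-1.27 to 0.73). Plagl1 was at -0.16 (-1.27 to 0.96) and Igf2r at -0.16 (-0.56 to 0.24). The edgeR adjusted p-values of the 4 genes ran from 0.800 to 0.981.

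The mock groups differ in the number of anaesthesia sessions and no gene at all was called between them (edgeR, 0 of 12021 or 0%; 667 genes had an unadjusted p below 0.05, DESeq2 called 1 and limma voom 0). For Peg3 and H19 this is again a description. Both were picked for standing high in these mock libraries beside the irradiated ones, and passed the count filter through them. Peg3 had means of 39.2 ± 19.4 CPM after 3x0Gy and 25.4 ± 3.5 after 1x0Gy (n = 4 each), a log2 fold change of 0.63 (SE 0.35). H19 had 14.2 ± 8.2 and 7.75 ± 2.33 CPM (n = 4 each), a log2 fold change of 0.86 (SE 0.47). Mest went the other way, at -0.88 (95% interval -1.80 to 0.04), from 30 and 78 counts over the groups. Every 3x0Gy library lay below every 1x0Gy library for Mest, by 2.09 against 2.13 CPM at the nearest, as for 1.76% of all genes tested. Meg3 was at 0.26, Plagl1 at -0.15 and Igf2r at 0.40, and the edgeR adjusted p-values of these genes and Mest ran from 0.836 to 0.970.

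Other genes listed as imprinted were set beside the 10, without regard to the tissue in which they are imprinted. Counts per gene do not tell the parental copies apart, so imprinting in these cells was not tested. This list, like those below, was drawn up with earlier results of these data known. Of 25 other genes listed as paternally expressed 23 were in the tables and 5 had enough counts. At day 13, 1 was called higher and 0 lower: Zrsr1, a splicing factor relative, was at 24.0 ± 3.8 CPM after 1x20Gy (n = 7) and 14.5 ± 5.5 after 1x0Gy (n = 4; log2 fold change 0.74, SE 0.22, edgeR adjusted p = 0.0484). Mcts2, a retrogene on chromosome 2 related to the translation factor Mcts1, was the 1 called lower at day 5, by -2.13 (SE 0.37) after 3x4Gy and -1.52 (SE 0.37) after 1x20Gy. At day 13 Mcts2 had -1.21 (SE 0.54) and was not called (edgeR adjusted p = 0.188).

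Of 23 other genes listed as maternally expressed 11 were tested at day 13, of which 1 was called higher and 2 lower. Copg2, a coat protein subunit whose gene overlaps Mest, rose by 1.01 (SE 0.21, edgeR adjusted p = 0.00859) on the log2 scale. Gatm, the first enzyme of creatine synthesis, and Cd81, a tetraspanin, fell by 0.62 (SE 0.17, adjusted p = 0.0375) and 0.56 (SE 0.15, adjusted p = 0.0270). At day 5, 2 of 12 were called lower after 3x4Gy, the proteoglycan Dcn at -2.04 (SE 0.41) and Cd81 at -0.89 (SE 0.28), and Cd81 alone after 1x20Gy, at -0.98 (SE 0.28). None of the 17 tested genes of these lists was called between the regimens or between the mock groups. The day 5 medians after 3x4Gy were 0.04 over the paternally and -0.41 over the maternally expressed genes. After 1x20Gy they were -0.16 and -0.09. The day 13 medians were -0.28 over the 5 paternally and 0.02 over the 11 maternally expressed genes, against -0.77 over the 4 tested of the 10 growth genes and 0.01 over all genes. Of those 4, Peg3 and H19 were picked for their fall at day 5, so their median does not describe an unselected class.

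**Figure D3:**
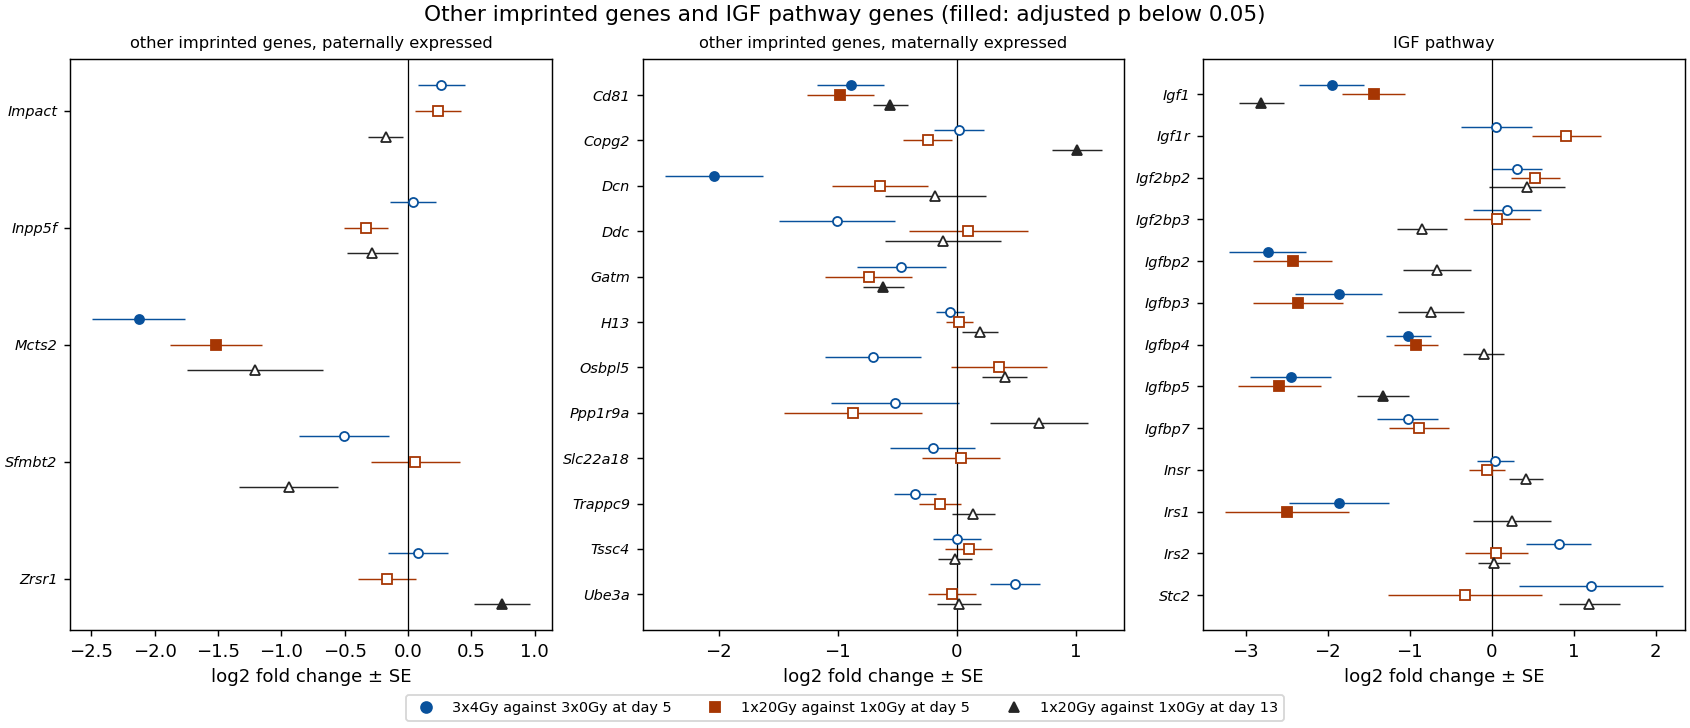
Points are log2 fold changes with bars of 1 SE (x axis) for every tested gene of 3 lists (y axis), in the 3 comparisons of an irradiated with a mock group, filled where the edgeR adjusted p was below 0.05. The medians of the lists of imprinted genes run from -0.41 to 0.04 over the 3 comparisons, with Mcts2, Dcn and Cd81 among the genes called lower at day 5. Igf1 and Igfbp5 are lower in all 3 comparisons.

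Around Igf2 and Igf2r, 20 further genes of the IGF pathway were followed. Igf1, the second ligand of the pathway and a known product of macrophages and stroma, was lower at day 13 in every irradiated library (1.55 to 8.65 CPM) than in any mock library (34.0 to 55.4). Its means were 5.87 ± 2.56 CPM (n = 7) and 41.5 ± 9.8 (n = 4), and it fell by 2.81 on the log2 scale (SE 0.27, edgeR adjusted p = 6.4e-05). Igfbp5, a secreted protein that binds both ligands, fell by 1.32 (SE 0.32, adjusted p = 0.0171), from 150.1 ± 42.2 CPM (n = 4) to 60.1 ± 32.8 (n = 7). These were the 2 called lower of 11 tested, with 0 called higher and a median of -0.10.

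At day 5, 6 of 13 tested IGF pathway genes were called lower and 0 higher in each regimen. Igf1 was at -1.95 (SE 0.40) after 3x4Gy and -1.44 (SE 0.39) after 1x20Gy. The binding proteins Igfbp2 and Igfbp5 were at -2.73 (SE 0.47) and -2.45 (SE 0.50) after 3x4Gy and at -2.43 (SE 0.48) and -2.59 (SE 0.50) after 1x20Gy. Irs1, an adaptor of the IGF1 and insulin receptors, was at -1.87 (SE 0.61) after 3x4Gy, and the binding protein Igfbp3 at -2.36 (SE 0.55) after 1x20Gy. The list medians were -1.02 and -0.89, against 0.00 and 0.02 over all genes, and none of the 13 was called between the regimens or between the mock groups.

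Relatives of the 10 genes that are not imprinted were also read. Cdkn1a (p21), a cyclin-dependent kinase inhibitor of the same family as Cdkn1c and a known p53 target, was at 838.6 ± 153.9 CPM after 3x4Gy (n = 6) and 310.0 ± 98.8 after 3x0Gy (n = 4), a log2 fold change of 1.44 (SE 0.19). After 1x20Gy it was at 769.5 ± 132.3 CPM (n = 6) against 356.6 ± 21.9 (n = 4), a log2 fold change of 1.11 (SE 0.19). Grb14, an adaptor of the family of Grb10, was higher at day 13 in every irradiated library, at 9.30 ± 6.33 CPM (n = 7) against 1.25 ± 0.60 (n = 4), a log2 fold change of 2.89 (SE 0.57, edgeR adjusted p = 0.00646). Each was the 1 gene called among the 5 (day 5) or 6 (day 13) tested of this list of 8.

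The summed fibroblast markers had lower medians in the comparisons in which Peg3 was lower, though not every marker did. The 13 fibroblast markers summed to between 98.1 and 198 CPM after 3x0Gy and between 15.1 and 52.1 after 3x4Gy, with 7 of 8 tested called lower and a median log2 fold change of -2.54. In the 1x0Gy libraries of day 5 they summed to between 59.7 and 205 CPM and after 1x20Gy to between 13.4 and 68.3, with 4 of 8 called lower and a median of -1.58. At day 13 the sums were 43.9 to 84.7 CPM in mock and 13.6 to 34.6 in irradiated libraries, with 4 of 7 called lower and a median of -1.55. The ranges did not overlap for 3x4Gy or at day 13, and no fibroblast marker was at 0 in a whole group. After 1x20Gy at day 5 some low markers had higher means than after 1x0Gy. These were Fap (1.49 ± 0.50 against 0.75 ± 0.23 CPM), Pdgfrb (0.99 ± 0.17 against 0.64 ± 0.19), Pdgfra and Fbln1, and the rest of the list had lower means. At day 13 Fap alone had a higher mean (1.10 ± 0.42 against 0.95 ± 0.46 CPM), and after 3x4Gy none did. The part of these cells in the levels of Peg3 and H19 was not tested.

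Of the 14 epithelial or tumour markers some were called lower at day 5, as Peg3 was, and at day 13 more were called higher than lower. They summed to between 591 and 1333 CPM after 3x0Gy against 200.3 to 954 after 3x4Gy (3 of 14 called lower), and to between 478 and 746 after 1x0Gy against 179 to 599 after 1x20Gy (6 of 14 called lower). At day 13 they summed to between 792 and 1108 CPM in mock and between 898 and 2669 in irradiated libraries, with 4 of 13 called higher and 1 lower (Krt14). The median log2 fold changes of this list were -0.66 after 3x4Gy and -1.59 after 1x20Gy at day 5, and 0.78 at day 13. The sum hides markers that differ: at day 13 Cdh1 had means of 458 ± 137 CPM after 1x20Gy (n = 7) and 325 ± 42 after 1x0Gy (n = 4). Krt14 had 3.9 ± 1.6 and 11.5 ± 1.9 CPM. The part of these cells in the levels of Peg3 and H19 was not tested. The 10 leukocyte markers went opposite to this list after 3x4Gy, with 3 of 9 tested called higher. They had 0 of 9 called after 1x20Gy at day 5 and 1 higher and 1 lower at day 13. Of the other markers, Lep was at 0 in all 6 groups and Cidec in 5, both fat cell genes.

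Vessel markers did not share 1 direction. The 7 pericyte or smooth muscle markers summed to between 7.84 and 15.7 CPM after 3x0Gy and between 1.60 and 7.74 after 3x4Gy (2 of 3 tested called lower, median log2 fold change -1.83), and to between 7.53 and 12.1 CPM after 1x0Gy and between 0.687 and 5.82 after 1x20Gy at day 5 (1 of 3 called lower, median -1.43). The ranges did not overlap in either, whereas at day 13 they did (4.60 to 8.89 in mock, 4.08 to 12.5 in irradiated libraries). The 9 endothelial markers summed to between 27.9 and 44.0 CPM after 3x0Gy and to higher values, between 50.4 and 83.1, after 3x4Gy. For 1x20Gy at day 5 their sums were 27.7 to 40.3 CPM in mock and 37.5 to 71.5 in irradiated libraries, and at day 13 they were 28.2 to 34.2 and 29.4 to 50.05. In each of the 3 comparisons 1 endothelial marker was called higher and 0 lower, Kdr at day 5 and Vwf at day 13, while Cldn5, Tek, Tie1 or Erg were at 0 in whole groups. Kdr made up most of the endothelial sums, with means of 50.8 ± 9.0 CPM after 3x4Gy and 27.8 ± 6.4 after 3x0Gy. The low markers of this list differed. Vwf had higher means after irradiation in all 3 comparisons and Esam lower means in all 3 (1.43 ± 0.80 CPM after 3x4Gy and 2.25 ± 0.71 after 3x0Gy). The part of vessel cells in the levels of Peg3 and H19 was not tested either.

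**Figure D4:**
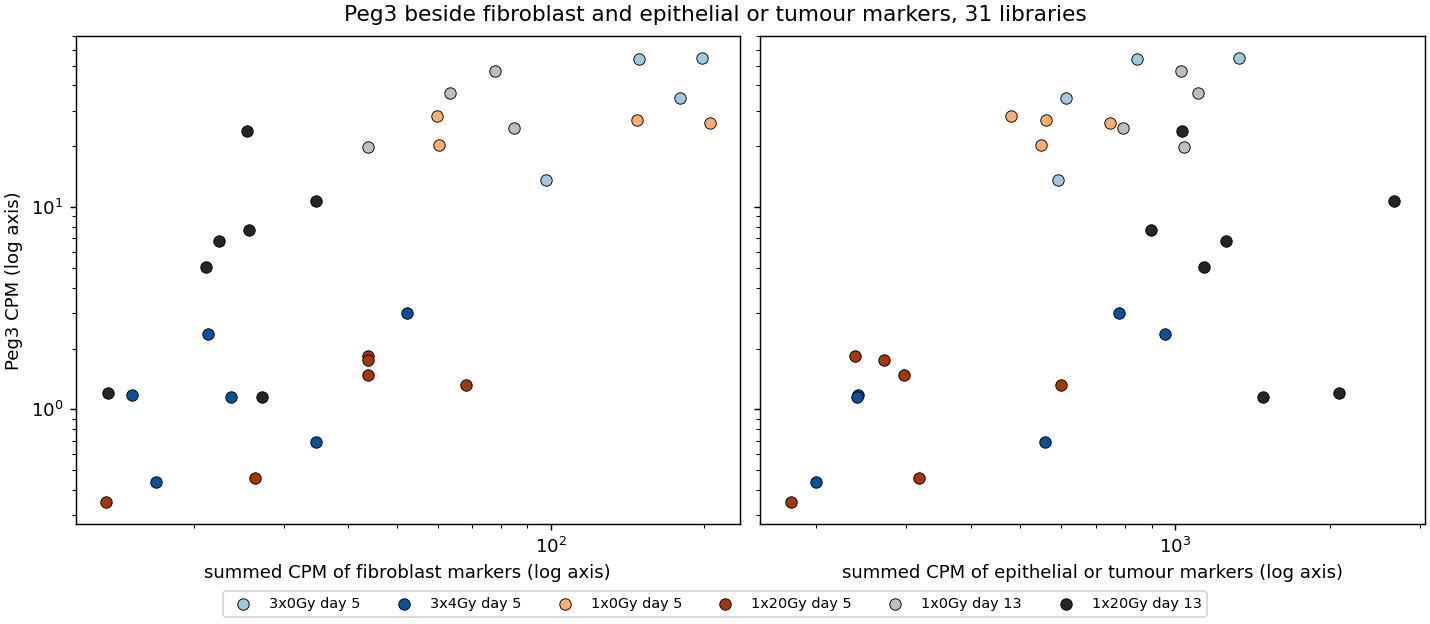
Each point is 1 of 31 libraries, with Peg3 CPM on the y axis and the summed CPM of 13 fibroblast markers (left) or 14 epithelial or tumour markers (right) on the x axis, all axes logarithmic and colours marking the 6 groups. The 12 irradiated libraries of day 5 lie at 3.01 CPM of Peg3 or less at every level of the epithelial sum, and the irradiated libraries of day 13 lie to the right of or among the mock libraries on that axis but to their left on the fibroblast axis.

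Variation among the 12 mock libraries was not used in choosing the genes and gave a further reading. Levels were taken as log2 CPM after subtracting each group's mean, and 4 relations were tested by permutation within groups (two-sided, adjusted over the 4). H19 rose with the mean log2 level of the fibroblast list (Pearson r = 0.70, permutation p = 0.00806, adjusted p = 0.0322; Spearman rho = 0.73, p = 0.00867, adjusted p = 0.0347; n = 12 libraries). Without the 2 libraries farthest from the median of the fibroblast list r was 0.76. In the 8 mock libraries of day 5 alone r was 0.64 and the relation did not pass (permutation adjusted p = 0.121), and day 13 has only 4 mock libraries. Leaving out 3x0Gy library 1, 2 or 4 or day 13 1x0Gy library 2, 3 or 4 also ended the call, with r from 0.65 to 0.74 (permutation adjusted p up to 0.132).

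Peg3 showed no such relation that passed. With the fibroblast list its r was 0.30 (permutation p = 0.203, adjusted p = 0.270; rho = 0.091, p = 0.739), and without the 2 farthest libraries r was 0.47. With the epithelial or tumour list r was 0.46 (permutation p = 0.305, adjusted p = 0.305; rho = 0.48, p = 0.208) and 0.43 without 2 libraries. H19 with the epithelial or tumour list had r = 0.58 (permutation p = 0.106, adjusted p = 0.212; rho = 0.50, p = 0.148), which was 0.35 without 2 libraries. That Peg3 and H19 differ in their relation to the fibroblast list was not tested.

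Genes whose levels ran most like those of Peg3 across the same 12 mock libraries, out of 10230 compared, included Igsf3 (r = 0.97), Ticam2 (0.96) and Ehf (0.96). Igsf3 is a membrane protein of the immunoglobulin superfamily, Ticam2 an adaptor of toll-like receptor 4 and Ehf an ETS factor known from epithelia. Those most like H19 were Cwf19l1 (0.95), C2cd2 (0.94), Btbd3 (0.94), Sde2 (0.93) and Vangl2 (0.92), the last a planar cell polarity protein. Between the 10 genes, Peg3 had r = 0.69 with H19, 0.69 with Meg3 and 0.39 with Igf2r, and H19 had 0.82 with Meg3 and -0.02 with Igf2r. These values are descriptions over 12 libraries that share their groups and depth. Library 2 after 3x0Gy, with few reads outside genes, was the lowest of its group for Peg3, H19 and Meg3 (13.6, 7.15 and 1.02 CPM). The r values of this paragraph were not taken again without it, so how far they rest on that library is not known.

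At day 13, Ehf and Igsf3 fell as Peg3 did. Ehf fell by 2.198 on the log2 scale (SE 0.29, edgeR adjusted p = 0.000702), from 54.4 ± 18.1 CPM (n = 4) to 11.9 ± 6.0 (n = 7). Igsf3 fell by 1.61 (SE 0.33, edgeR adjusted p = 0.00813), whereas Ticam2 at -0.01 (SE 0.30) was not called. None of the 5 genes most like H19 was called there, with log2 fold changes from -0.43 (Btbd3) to 0.28 (Vangl2). Ehf was also called lower in both day 5 comparisons, at -2.87 (SE 0.46) after 3x4Gy and -2.68 (SE 0.47) after 1x20Gy, and the 5 genes most like H19 were called in neither.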

How the data were processed

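The authors deposited read counts per gene symbol (38406 symbols), in a separate table for each of the 31 libraries; the 5 summary lines at its end were kept out of all totals. Per the submitters' processing notes, bcl2fastq 2.20.0.422, cutadapt 1.5, HISAT2 2.0.4 and HTSeq 0.9.1 were used with GRCm38 (mm10); the gene annotation and the strand setting are not given in the sources used here. Per the labels' protocols, RNA had an integrity number above 8.5. Depth limits the low genes, and limits from counts cover counting error only, since reads carried no molecular identifiers.

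Tests used edgeR 4.0.16 under R 4.3.3, with scaling by TMM, genes kept by filterByExpr (minimum count 10, minimum total 15), a two-sided quasi-likelihood test and Benjamini-Hochberg adjustment over all genes tested (12021 at day 5, 11071 at day 13), with 0.05 as the threshold. The 20 libraries of day 5 shared 1 fit and the 11 of day 13 another. The SE is the absolute log2 fold change divided by the square root of F, and 95% intervals use the t quantile for the fit's total degrees of freedom. Log2 CPM used a prior count of 2. Relations used 100000 permutations, and fewer where a library was left out. DESeq2 1.42.0 and voom of limma 3.58.1 were alternatives, and the fits were tested on simulated data.

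Genes and lists were chosen with earlier results of these data known. Named were all 10 genes, per other list at most 4 called genes in each direction with the largest change and a mean of at least 1 CPM, and, of the 5 genes most like Peg3 and the 5 most like H19, those reported; some of the former are not reported here. Positions are from GENCODE M21, sequences from RefSeq on GRCm38.p6.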

Additional observations from a re-analysis of the deposited data

Results flagged for a closer look

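Over 32 sets of values, each 1 gene in 1 group of 4 to 7 libraries, the highest or lowest library stood apart from the rest by Dixon's criterion in 5. Chance marks about 1 in 20 such sets. Peg3 was at 23.7 CPM in library 5 after 1x20Gy at day 13, against 1.16 to 10.7 in the other 6. H19 was at 6.23 CPM in library 1 of that group, against 0.622 to 2.86 in the others. Mest was at 0.341 CPM in library 2 after 3x0Gy, the library with few reads outside genes, against 1.86 to 2.09. Plagl1 was at 3.36 CPM in library 2 after 1x0Gy at day 5, against 0.716 to 0.893. Igf2r was at 40.1 CPM in library 1 after 1x0Gy at day 13, against 29.9 to 31.3.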

How the results depend on the processing

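Alternatives were scaling by RLE or library size, DESeq2, limma voom, no low count filter, a fibroblast and epithelial covariate, the 2 groups alone, a threshold of 0.01, the replicate block and leaving out each library. At day 13, 1 of the 10 genes was called, against 0 with the covariate or at 0.01, 2 with DESeq2, and 0 to 2 when a library was left out (0 without 1x0Gy library 1 or 3, 2 without 1x20Gy library 1). For 1x20Gy against 1x0Gy at day 5, 2 were called, and 1 with the covariate. No other alternative changed a count of the 10 genes called.

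Direction turned, with no call either way, for Peg3 (-0.021 with the covariate) and Plagl1 (-0.35 to 0.33 leaving out a library) between the regimens, for Meg3 (-0.016 with the covariate, -0.10 to 0.54 leaving out a library) and Plagl1 (0.10 with voom, -0.44 to 0.65 leaving out a library) between the mock groups, and for Meg3 after 1x20Gy at day 5 (0.27 with the covariate). The cause was not tested. The relation of H19 to the fibroblast list had r = 0.65 with a prior count of 0.5 (permutation adjusted p = 0.0582), 0.64 in the day 5 mock libraries (adjusted p = 0.121) and 0.65 to 0.76 leaving out a library, where 6 of 12 lost the threshold.

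Genes called in all at day 13 were 891, against 1533 by library size, 588 with the covariate, 290 at 0.01, and 588 and 306 without 1x0Gy library 2 or 3. Between the regimens 3 became 5 without the filter, 0 with the covariate, voom or at 0.01, 1 in the 2 groups alone, 14 with DESeq2 and 0 to 5 leaving out a library. Between the mock groups 0 became 1 without the filter, with DESeq2 or without 1x0Gy library 1 or 2. For 3x4Gy, 1477 became 267 with the covariate, 702 in the 2 groups alone and 665 at 0.01. For 1x20Gy at day 5, 1028 became 195 with the covariate, 425 at 0.01, and 582 and 556 without 1x0Gy library 3 or 4.

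Title numbers share only a number: deviations of same-numbered libraries correlated between -0.47 and 0.42. With the replicate block Peg3 at day 13 was at -2.33 and 1064 genes were called in all, and no call on the 10 genes changed.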
